A study of Mus musculus with 556 samples.

Results

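The comparison set 45 single blastomeres of the 2-cell mouse embryo against 46 zygotes, all labelled as carrying the bacterial DNA adenine methyltransferase Dam on its own. These 91 samples were taken by their labels from 556 in the series, of which 512 cells stand in the deposited table and 498 of those have a group. The series used single-cell DamID to map chromatin from the oocyte to the 8-cell embryo, mostly with Dam fused to lamin B1, a protein of the nuclear lamina. Dam on its own was the accessibility arm of that design, and the question here was where its signal differed between the 2 stages.

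Embryos were labelled as a cross of C57BL/6 females with CAST/EiJ males, while the growth protocol names F1 females of CBA and C57BL/6J parentage, aged 5 to 8 weeks, mated to CAST/EiJ males. Zygotes received Dam mRNA at 20 ng/µl, and auxin, which kept the degron-tagged enzyme low, was withdrawn at 21 h after the hCG injection that times ovulation, for 6 to 8 h. For the 2-cell stage, late zygotes were injected at 27 to 28 h with 40 ng/µl, auxin was withdrawn at 42 h, and blastomeres were taken at 48 to 50 h. Both groups also received mRNA for the auxin receptor TIR1 and for a membrane EGFP. A zygote sample was 1 whole embryo with both parental pronuclei and a 2-cell sample was 1 of the blastomeres. Stage, mRNA dose and labelling hours changed together and cannot be told apart. No label ties a cell to its mother, litter or day of injection. Each stage was therefore treated as 1 sample, no test of the stages was made, and the spread given is that between cells.

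Dam methylates the adenine of every GATC it can reach, and methylated sites are cut, amplified and sequenced, so untethered Dam marks open chromatin. In the mouse the major wave of genome activation falls in the 2-cell embryo, when the zinc-finger gene cluster Zscan4, Zfp352 and the first housekeeping genes are transcribed and maternal RNA is cleared. Lamina-associated domains (LADs) are long, gene-poor stretches at the nuclear envelope that are mostly silent.

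The promoters of 5 genes are shown because they lie inside 100 kb bins on which the results turn. The first 4 belong to bins in which a blastomere exceeded a zygote in at least 80% of pairs, and Zfp352 is a gene of the activation wave. Each is the RefSeq window (GRCm38.p6) from 250 bases before to 50 bases after the gene start, 5′ to 3′ on the gene's strand. Capitals mark GATC, the letters Dam methylates, which read the same on both strands. Kmt5a lies at chr5:124439680-124439979 on the plus strand, Heatr3 at chr8:88137635-88137934 on the plus strand, Galk1 at chr11:116012670-116012969 on the minus strand, Kcnrg at chr14:61607207-61607506 on the plus strand and Zfp352 at chr4:90218570-90218869 on the plus strand.
Kmt5a: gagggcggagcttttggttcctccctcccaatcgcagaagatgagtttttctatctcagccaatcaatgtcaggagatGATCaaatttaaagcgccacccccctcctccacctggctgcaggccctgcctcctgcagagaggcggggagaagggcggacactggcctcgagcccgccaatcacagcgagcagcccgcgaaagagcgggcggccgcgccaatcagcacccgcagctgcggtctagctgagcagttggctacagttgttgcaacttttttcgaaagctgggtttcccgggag
Heatr3: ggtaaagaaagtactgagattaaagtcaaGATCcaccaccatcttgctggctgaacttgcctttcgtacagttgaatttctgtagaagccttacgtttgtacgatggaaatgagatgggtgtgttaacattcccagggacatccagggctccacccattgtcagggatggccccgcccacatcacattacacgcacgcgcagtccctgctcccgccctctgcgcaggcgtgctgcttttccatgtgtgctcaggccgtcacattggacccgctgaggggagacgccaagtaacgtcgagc
Galk1: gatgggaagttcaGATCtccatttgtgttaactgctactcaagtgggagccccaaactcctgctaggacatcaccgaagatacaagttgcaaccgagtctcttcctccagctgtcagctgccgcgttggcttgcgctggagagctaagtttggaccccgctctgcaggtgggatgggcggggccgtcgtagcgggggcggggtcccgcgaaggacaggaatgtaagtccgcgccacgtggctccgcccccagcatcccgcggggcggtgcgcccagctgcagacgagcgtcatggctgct
Kcnrg: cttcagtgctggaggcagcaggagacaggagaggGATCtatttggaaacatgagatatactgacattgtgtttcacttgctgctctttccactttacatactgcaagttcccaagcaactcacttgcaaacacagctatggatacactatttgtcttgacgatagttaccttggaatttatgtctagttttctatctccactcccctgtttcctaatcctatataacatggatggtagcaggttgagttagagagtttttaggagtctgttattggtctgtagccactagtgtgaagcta
Zfp352: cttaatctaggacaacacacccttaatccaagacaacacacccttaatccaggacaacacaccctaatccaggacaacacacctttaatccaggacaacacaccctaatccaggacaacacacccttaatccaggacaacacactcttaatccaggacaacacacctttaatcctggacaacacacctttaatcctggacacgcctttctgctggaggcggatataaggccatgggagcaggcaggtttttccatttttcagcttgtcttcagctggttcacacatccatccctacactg
The first 4 windows held 1 GATC each and that of Zfp352 held 0, against 15758 of 32851 promoter windows of that length (48.0%) that held at least 1. The 5 genes are examples, and other genes of their bins are not shown. Their counts therefore say nothing about promoters of higher bins in general. GC content was 59.7% for Kmt5a, 54% for Heatr3, 62.7% for Galk1, 41.7% for Kcnrg and 47% for Zfp352. A promoter window is a small part of its bin, whose expected read number had a median of 456, so the values below are those of the surrounding 100 kb.

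The measurement was the observed over expected ratio (OE) of DamID reads in each 100 kb bin of the autosomes, on mm10, where 1 is the genome average of the cell. Its steps gave back whole reads, and by these the zygotes held 38932 to 332747 reads (median 94287) and the blastomeres 33095 to 209033 (median 56826). Pairs of cells of a stage correlated over bins with a median r of 0.273 among zygotes (0.135 to 0.435) and 0.301 among blastomeres (0.0818 to 0.548), so single bins of single cells are noisy. No pair of cells held identical values. The 8 blastomeres numbered 41 to 48 stood apart from the 37 numbered 4 to 40. Their mean profile correlated at 0.509 with that of the zygotes, at 0.499 with that of the other blastomeres and at 0.484 with that of 2-cell Dam-lamin B1, whereas the other 37 correlated at 0.0153 with 2-cell Dam-lamin B1 and at 0.882 with the zygotes. These correlations are over bins and share the genome's base composition. Whether those 8 hold Dam alone, as they are labelled, was not tested, and every value over all 45 blastomeres includes them. The main summary values are given over all 45 and again without those 8, and a value printed alone is over all 45. Counts of bins and mean OE of gene lists, shares by LAD class and counts of runs are over all 45 unless stated. For single genes the second value is printed for the leading bins and where leaving out the 8 took the gene across 1.5-fold.

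The first difference was between LADs and the rest of the genome. The LAD lists come from lineages of the blastocyst, a later stage, and need not match the lamina domains of the stages compared. Bins at least 50% covered by LADs in both of the series' lists (inner cell mass and trophectoderm) were set against bins touched by neither, as the log2 ratio of their mean OE in each cell, a value below 0 meaning less Dam signal inside LADs. In zygotes it was lowest at −1.06, with a median of −0.73 and a highest value of −0.40 (mean −0.74 ± 0.15, SD over 46 cells). In blastomeres it was lowest at −1.73, with a median of −0.96 and a highest value of 0.00 (mean −0.92 ± 0.36, SD over 45 cells). The stages overlapped, with 37 of 45 blastomeres below the zygote median, 15 below the lowest zygote and 6 above the highest zygote. Those 6 all belonged to numbers 41 to 48, which ran from −0.48 to 0.00. The difference of the means was −0.18, and −0.32 without the 8, where the 37 blastomeres ran from −1.73 to −0.75 and all lay below the zygote median.

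Mean OE differed on both sides of the contrast. As OE is relative to the genome average of the cell, the sides are not independent and neither shows an absolute amount. This holds as well for the other classes of bins below. Mean OE inside LADs was 0.823 ± 0.0447 in zygotes (lowest 0.719, median 0.821, highest 0.925) and 0.769 ± 0.101 in blastomeres (lowest 0.551, median 0.757, highest 1.02). Outside LADs it was 1.37 ± 0.0739 (lowest 1.22, median 1.37, highest 1.53) and 1.45 ± 0.174 (lowest 1.02, median 1.47, highest 1.82). Inside LADs 12 blastomeres lay below the lowest zygote, and outside LADs 13 lay above the highest. Without the 8 the blastomere means were 0.730 ± 0.0576 inside and 1.52 ± 0.101 outside.

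Across the series' Dam-only stages the contrast had an order. What part of it comes from LAD lists of a later stage was not tested. The 8-cell embryos received the same mRNA dose as the blastomeres, above that of the zygotes, with later injection and auxin withdrawal. The part of dose and timing in the order was not tested, nor in the other 8-cell values given below. Oocytes had a mean of −0.45 ± 0.20 (43 cells, −0.81 to −0.13), zygotes and blastomeres followed as above, and the 4 cells of the 8-cell stage had −1.98 ± 0.20 (−2.26 to −1.84). Oocytes also divided by number, with those numbered 4 to 31 at −0.81 to −0.39 and those numbered 32 to 46 at −0.36 to −0.13. Zygotes and blastomeres overlapped, whereas the 8-cell cells lay below every blastomere. Cells with Dam-lamin B1 had means above 0 in zygotes (0.64 ± 0.26, 19 cells, 0.30 to 1.16) and in blastomeres (0.77 ± 0.42, 47 cells, −0.03 to 1.38), and a mean below 0 in oocytes (−0.17 ± 0.19, 56 cells). In zygotes and blastomeres Dam-lamin B1 was given at a lower mRNA dose than Dam alone.

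**Figure D1:**
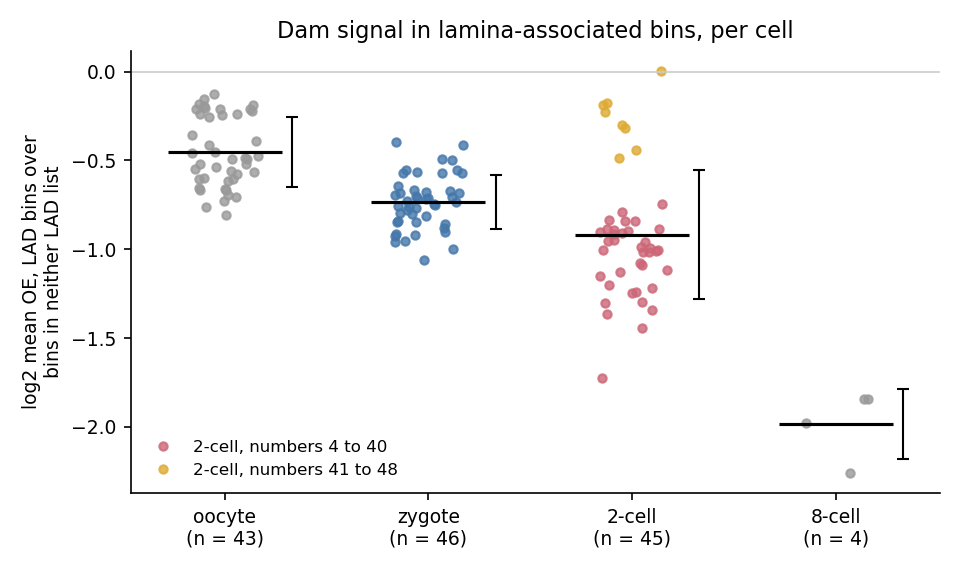
The plot shows the LAD contrast (y axis, log2 of mean OE inside LADs over outside) of every Dam-only cell by stage, one point per cell, with the bar at the mean and the error bar the SD over cells. Blastomeres reach from −1.73 to 0.00 around a mean of −0.92, with numbers 41 to 48 at its upper end, while zygotes sit between −1.06 and −0.40.

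The step at LAD borders was steeper in blastomeres. At 571 borders of inner cell mass LADs, mean OE in the bin centred 450 kb outside was 1.15 in zygotes and 1.18 in blastomeres, and in the bin 450 kb inside it was 0.887 and 0.812. In the 8-cell stage the same bins had 1.49 and 0.531. The first bin inside the border, centred at 50 kb, already had the lower blastomere level, 0.944 against 1.01, and the median log2 difference in it was −0.12. Without the 8 blastomeres the values 450 kb outside and inside were 1.22 and 0.779.

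Gene-rich bins showed the larger difference. A protein-coding gene was counted in the bin of its midpoint. Mean OE over bins with 4 or more genes was 1.5 ± 0.101 in zygotes (lowest 1.31, median 1.5, highest 1.74) and 1.81 ± 0.261 in blastomeres (lowest 1.20, median 1.83, highest 2.37), and 33 of 45 blastomeres lay above the highest zygote. Over bins without a gene it was 0.850 ± 0.0379 (lowest 0.761, median 0.852, highest 0.941) and 0.781 ± 0.0737 (lowest 0.646, median 0.764, highest 0.961), and 20 blastomeres lay below the lowest zygote. Without the 8 the blastomere means were 1.90 ± 0.172 and 0.753 ± 0.0433. Numbers 41 to 48 had 1.37 ± 0.0875 over bins with 4 or more genes, below the zygote mean.

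The difference was graded with gene number. The log2 ratio of the stage means, each with 0.1 OE added, had a median of −0.06 over all 23923 bins tested (mean OE of the stages at least 0.2) and of −0.08 without the 8. By number of genes in the bin its median was −0.13 with 0 genes, −0.05 with 1, 0.06 with 2, 0.14 with 3, 0.17 with 4, 0.24 with 5 and 0.32 with 6 or more. Without the 8 the first was −0.18 and the last 0.37. The middle 50% of the 365 bins with 6 or more genes ran from 0.06 to 0.50, and that of the 13321 bins without a gene from −0.36 to 0.11. Their mean OE went from 1.63 to 2.08 in the first class and from 0.853 to 0.783 in the second, and in the 8-cell stage stood at 3.26 and 0.546.

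The grading was wide outside LADs and narrow inside. Among bins of neither LAD list the median log2 ratio went from −0.10 with 0 genes to 0.37 with 6 or more, in 273 bins. Among bins of both LAD lists it went from −0.13 with 0 genes to 0.03 with 6 or more, in 67 bins, whose mean OE was 0.788 in zygotes and 0.846 in blastomeres. Over numbers 4 to 40 alone the first pair was −0.07 and 0.46 and the second −0.20 and −0.06, so inside LADs the sign in gene-rich bins rested on those 8. The correlation of a cell's OE with gene number over bins was 0.204 ± 0.0367 in zygotes and 0.267 ± 0.0836 in blastomeres, with 18 of 45 above the highest zygote at 0.299. Without the 8 it was 0.299 ± 0.0489, and in the 8 it ran from 0.0597 to 0.175.

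**Figure D2:**
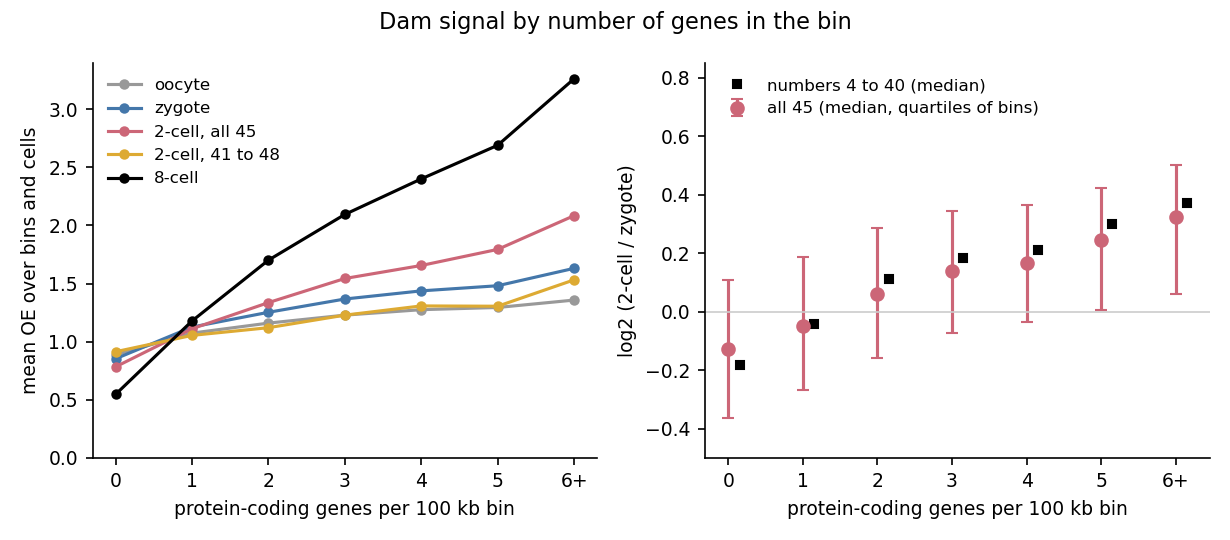
The plot shows mean OE (y axis) against the number of protein-coding genes in the 100 kb bin (x axis, 0 to 6 or more) for the Dam-only stages. The 2-cell line runs from 0.783 to 2.08 and is steeper than the zygote line from 0.853 to 1.63, and the 8-cell line is steeper again.

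Gene starts and gene bodies differed. Bins were sorted into 6705 that hold the start of a protein-coding gene, 4090 that lie in a gene body without a start and 8389 without such a gene. These classes leave out part of the 23923 tested bins. Of 23555 bins with an expected read number of at least 200, 8437 held a known gene start. The median log2 ratio was 0.03 in start bins, −0.15 in body bins and −0.12 in bins without a gene, and 0.05, −0.19 and −0.18 without the 8 blastomeres. Mean OE in start bins was 1.19 in zygotes and 1.25 in blastomeres, and in body bins 0.97 and 0.879. Outside LADs the 3 medians were 0.09, −0.10 and −0.13, and inside LADs −0.04, −0.17 and −0.11. Without the 8 these were 0.16, −0.06 and −0.10 outside and −0.09, −0.24 and −0.19 inside. In the long genes read below, picked for their low body bins, the start bins differed less than the body bins. Among those start bins only that of Aopep had a log2 ratio that was not lower (0.07).

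Promoter composition went with the same difference. RefSeq promoters matched 16430 of 20527 autosomal protein-coding genes, and 7768 of them (47.3%) were CpG-rich, meaning an observed over expected CpG ratio of at least 0.6 with a GC content of at least 50% over the 300 bases. In bins with 2 genes the median log2 ratio was 0.15 where all promoters were CpG-rich (508 bins) and 0.00 where none was (506 bins). In bins with 3 genes it was 0.26 (120 bins) and 0.01 (199 bins). Without the 8 the pairs were 0.20 and 0.00, and 0.33 and 0.02. LAD coverage differed between these classes, since both LAD lists covered 14.6% of the first 2-gene class and 49.6% of the second. Among 1-gene bins outside LADs the 2 medians were 0.03 and −0.04, and inside LADs −0.09 and −0.07. Without the 8 they were 0.08 and 0.02 outside and −0.13 and −0.12 inside.

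**Figure D3:**
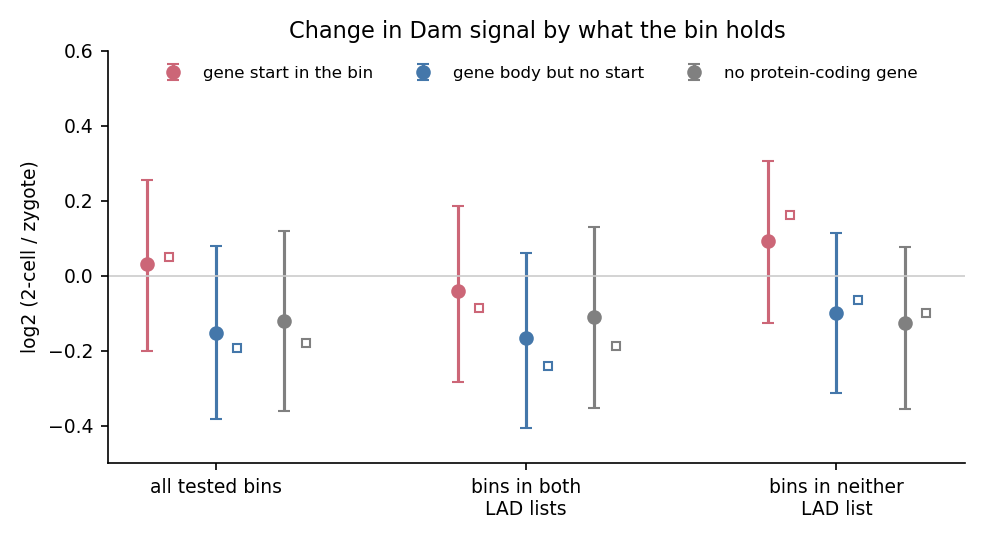
The plot shows the median log2 ratio of 2-cell over zygote OE (y axis) for bins with a gene start, with a gene body but no start, and without a protein-coding gene, inside and outside LADs. Filled circles are all 45 blastomeres with the quartiles of the bins as bars, open squares are numbers 4 to 40, and start bins outside LADs sit highest at 0.09.

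Single bins differed by small amounts. Of 23923 tested bins, 63 (0.263%) had at least 2-fold more signal in blastomeres and 141 (0.589%) at least 2-fold less. By 1.5-fold these were 842 (3.52%) and 1732 (7.24%), or 880 (3.68%) and 2167 (9.06%) without the 8 blastomeres. Of the 63 higher bins, 35 had an expected read number under 200 or none that could be recovered, as had 29 of the 141 lower bins and 368 of all tested. With a pseudocount of 0.5 in place of 0.1 the 2-fold counts were 14 and 10. With the thinly covered bins left out, 28 of 23555 bins (0.119%) were 2-fold higher and 112 (0.475%) 2-fold lower. Without the 8 blastomeres 57 bins (0.238%) were 2-fold higher and 220 (0.92%) 2-fold lower. Of these, 22 (0.0934%) and 192 (0.815%) were well covered, and they held 9 of the 28 higher and 70 of the 112 lower bins.

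The bins on either side differed in what they hold. Gene starts not on record count as absent in the shares that follow. Of the 28 higher bins 9 (32.1%) held a known gene start and of the 112 lower bins 7 (6.25%), against 35.8% of all well-covered bins. At 1.5-fold, 763 well-covered bins (3.24%) were higher and 1668 (7.08%) lower, and 414 (54.3%) and 275 (16.5%) of these held one. Of the bins in both LAD lists 2.75% were 1.5-fold higher and 8.84% lower, while of those in neither 5.06% were higher and 3.62% lower. The mean profiles of the stages correlated at 0.881 over bins.

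Some bins separated the cells. In 11 bins (0.046%) a blastomere exceeded a zygote in at least 80% of the zygote and blastomere pairs, and in 4 bins (0.0167%) it was lower in at least 80%. Without the 8 these were 25 (0.105%) and 3 (0.0125%), and with every cell thinned to 33095 reads they were 0 and 2. These 15 bins were named after their values were seen. All 15 lay outside the LADs of both lists, as did 7644 of the 23923 tested bins. Of the 15, 14 held a protein-coding gene, as did 44.0% of all well-covered bins. Whether the rule on pairs favours bins with more signal was not tested.

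The bin with the highest share of pairs, 84.8%, was chr14:61600001-61700000, which holds Trim13, a ubiquitin ligase gene, and Kcnrg, a potassium channel regulator. OE in it was lowest at 0.00, with a median of 0.733 and a highest value of 3.72 in zygotes, and 0.00, 1.72 and 4.05 in blastomeres. The means were 0.792 ± 0.730 and 1.91 ± 0.95, a log2 ratio of 1.17, from 143 reads over all zygotes (95% exact Poisson interval 121 to 168) and 223 over all blastomeres (195 to 254). The cells overlapped, yet an OE of at least 1 was found in 15 of 46 zygotes (32.6%, exact binomial 95% interval 19.5 to 48.0) and in 39 of 45 blastomeres (86.7%, 73.2 to 94.9). These intervals cover counting error only. The binomial ones take the cells as independent, which no label shows, and the bin was picked as the highest in share of pairs. These intervals therefore measure no difference between the stages. Numbers 41 to 48 had a mean of 1.91 in this bin, equal to that of the other blastomeres.

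Next came chr11:116000001-116100000, with Galk1, the galactokinase gene, and H3f3b, which encodes the replacement histone H3.3. Its zygotes ran from 0.233 over a median of 1.54 to 4.36 and its blastomeres from 0.882 over 2.76 to 9.86. The means were 1.65 ± 0.945 and 3.32 ± 1.82, a log2 ratio of 0.97 (0.98 without the 8), with 84.3% of pairs higher. In chr5:124400001-124500000, which holds Kmt5a, the histone H4 lysine methyltransferase, with Rilpl2 and Snrnp35, zygotes ran from 0.00 over 0.925 to 3.78 and blastomeres from 0.38 over 2.41 to 6.53. Means were 1.19 ± 0.832 and 2.54 ± 1.26, and the log2 ratio 1.04 with or without the 8.

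The bin of Neurl4, Gps2, the translation factor gene Eif5a and the germ-cell RNA-binding gene Ybx2, chr11:69900001-70000000, had 10 genes. Its zygotes ran from 0.327 over 1.57 to 4.44 and its blastomeres from 1.27 over 3.32 to 8.49. Every blastomere had an OE of at least 1 there, against 35 of 46 zygotes, and the log2 ratio was 0.90 (0.89 without the 8). Of the other 7 bins, 6 held Cnep1r1 and Heatr3 (1.06 ± 0.827 to 2.29 ± 1.10, log2 ratio 1.03), the Fanconi anaemia gene Fancg with Pigo (0.962 ± 0.552 to 2.00 ± 0.988, 0.98), B4galt7 with Ddx46 (0.94), Oasl1 and Oasl2 (0.81), Dnajc5g with Gtf3c2 and Eif2b4 (0.81), and Slc25a2 with Taf7, a TFIID subunit gene (0.867 ± 0.641 to 1.97 ± 1.18, 1.10). Leaving out the 8, the 11 log2 ratios ran from 0.89 to 1.17. The Taf7 bin was the exception in the 8-cell stage, where its mean OE was 1.04, whereas the others stood at 2.81 to 5.79.

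**Figure D4:**
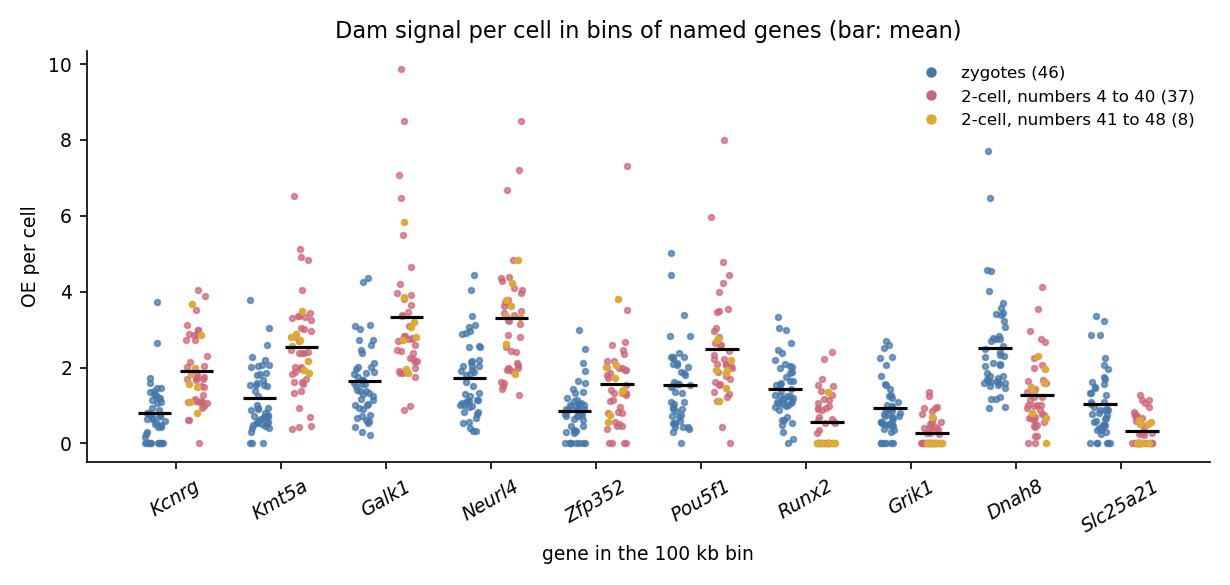
The plot shows OE (y axis) of every zygote and blastomere, one point per cell, in 10 bins named by a gene each: Kcnrg, Kmt5a, Galk1, Neurl4, Zfp352, Pou5f1, Runx2, Grik1, Dnah8 and Slc25a21. In the first 4 the blastomeres sit higher with overlap, and in the last 4 most blastomeres sit near 0 or below the zygotes.

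By size of difference, the 12 gene-holding bins with the largest higher log2 ratio, whose medians over cells also differed 2-fold, held Mup2 (1.52), Zfp996 (1.33), Tmem254b with Cphx3 and Duxbl3 (1.29), Trim13 with Kcnrg, Zfp804b (1.13), Slc25a2 with Taf7, Sult2a2 (1.06), Kmt5a, Cnep1r1 with Heatr3, Pan3 (1.03), Tacr3 (1.01) and the interferon-stimulated gene Isg15 with Noc2l (1.00). The Mup2 and Tmem254b bins had expected read numbers of 90 and 61 and lie in multi-copy gene clusters, where reads of near-identical copies may be split, so their values are uncertain. Zfp996, a zinc-finger gene, went from 0.304 ± 0.357 to 0.914 ± 0.833, and its 8-cell mean was 1.61 ± 1.53. Isg15 and Noc2l went from 1.17 ± 0.825 to 2.46 ± 1.32. Without the 8 blastomeres Zfp804b, Sult2a2, Pan3 and Tacr3 had 0.75, 0.82, 0.80 and 0.79, under 2-fold, and 3 of these 4, all but Pan3, lay in both LAD lists. Of the 12 bins 9 held a known gene start, but these bins were picked for holding a gene. For Sult2a2, Slc25a2 and Taf7 no start was on record, and their bins were counted as without one. Among all well-covered 2-fold higher bins the share was 32.1%, against 35.8% of well-covered bins.

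Lower bins held fewer known gene starts. Of the 12 gene-holding bins with the largest lower log2 ratio, 11 held a bitter taste receptor cluster, Grik1, Slc25a21, Pcdh7, Aopep, Fads2b with the olfactory receptor genes Olfr996 and Olfr998, Runx2, Gria2, Slc26a7, Cep85l with Pln, and Rp1. No start was on record for Grik1, Slc26a7 and Rp1, whose bins were counted as without one. The log2 ratios of these 11 bins ran from −1.77 to −1.12, and 3 of the 12 held a known gene start. Without the 8 blastomeres they ran from −1.65 to −0.90, with Gria2, Slc26a7 and Rp1 at −0.98, −0.99 and −0.90, under 2-fold. Of the 12, 8 lay in both LAD lists, as did 12058 of the 23923 tested bins, and Runx2 alone lay in neither.

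The taste receptor bin, chr6:132800001-132900000 with Tas2r117, Tas2r123 and 3 more, went from 0.477 ± 0.644 to 0.0687 ± 0.219, and 1 of 45 blastomeres reached an OE of 1. Grik1, a kainate receptor subunit gene, went from 0.934 ± 0.721 (lowest 0.00, median 0.764, highest 2.69) to 0.286 ± 0.386 (lowest 0.00, median 0.00, highest 1.35) in chr16:88000001-88100000. Its log2 ratio was −1.42, and −1.27 without the 8, whose mean was 0.0884. Slc25a21, a mitochondrial carrier gene, went from 1.05 ± 0.866 to 0.332 ± 0.393 (−1.41, and −1.37 without the 8).

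Runx2, the transcription factor gene of bone formation, had its body bin chr17:44600001-44700000 lower in 81.4% of pairs. Zygotes ran from 0.00 over 1.27 to 3.33 (mean 1.44 ± 0.749) and blastomeres from 0.00 over 0.347 to 2.41 (mean 0.569 ± 0.665), a log2 ratio of −1.20, or −1.03 without the 8. The other 3 bins lower in at least 80% of pairs held Dnah8, a dynein heavy chain gene expressed in testis (2.53 ± 1.35 to 1.26 ± 0.925, −0.95), Foxo6 (2.10 ± 1.03 to 1.04 ± 0.988, −0.95) and, at chr9:32200001-32300000, no protein-coding gene (1.24 ± 0.784 to 0.456 ± 0.546, −1.27). All 4 bins had a zygote mean above the genome average of 1. Over the 4 cells of the 8-cell stage Foxo6 had a mean of 2.23, Dnah8 0.834 and Runx2 1.11 ± 0.55.

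For long genes the bin of the gene's start was read beside the named bin. The start bins had log2 ratios of −0.29 for Slc25a21, −0.33 for Pcdh7, 0.07 for Aopep, −0.17 for Runx2 and −0.32 for Gria2, where the named bins had −1.41, −1.24, −1.22, −1.20 and −1.19. In these 5 genes the start bin differed less than the named bin. They were picked for their low named bins, so this is a description of 5 genes.

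Gene lists were described by the median over the bins that hold their members and by the count of bins 1.5-fold higher or lower, against −0.06 over all bins and 3.52% and 7.24% of bins. Of the 33 lists 26 had a median above that of all 23923 tested bins, of which 13321 hold no gene. The list of genes of 2-cell activation found 36 of 38 genes in 33 tested bins. Of these bins 7 were higher and 0 lower, or 9 and 1 without the 8, with a median of 0.35 (0.37 without the 8). The list had 2.24 genes per bin, and bins of 2 genes had a median of 0.06 over the genome. The mean OE over its bins was 1.38 ± 0.193 in zygotes (1.04 to 1.89) and 1.69 ± 0.304 in blastomeres (1.02 to 2.30), and 39 of 45 blastomeres lay above the zygote median. Highest were Zscan4b (0.96, in a bin with an expected number of 75), Zfp352 and the homeobox gene Obox6 (1.29 ± 0.770 to 2.24 ± 1.36, 0.75). Lowest were Gata2 (1.96 ± 1.18 to 1.39 ± 1.17, −0.47), Duxf3, which belongs to the Dux locus that switches on 2-cell genes (4.10 ± 1.52 to 3.52 ± 1.42, −0.22), and Obox1 (−0.21). Obox1 had −0.02 without the 8 and lies in a bin with an expected number of 162. The Duxf3 bin was also above the genome average with Dam-lamin B1, at 2.93 in zygotes and 4.42 in blastomeres.

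Zfp352, in chr4:90200001-90300000 inside LADs, ran from 0.00 over 0.840 to 2.98 in zygotes and from 0.00 over 1.39 to 7.32 in blastomeres. Its log2 ratio was 0.81 (0.78 without the 8), and 70.8% of pairs were higher. Its 8-cell mean was 0.979 ± 0.934 over 4 cells, beside a zygote mean of 0.850. Zscan4c, of the cluster that marks the 2-cell embryo, ran from 0.00 over 0.589 to 2.37 and from 0.00 over 0.730 to 4.14, with a log2 ratio of 0.52 (0.66 without the 8) and 55.7% of pairs higher. These cells overlapped almost wholly. Zscan4 genes are near-identical copies, so their bins are uncertain.

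Maternal and oocyte genes had a smaller median. Of 37 tested bins 3 were 1.5-fold higher and 1 lower, with a median of 0.11 (0.11 without the 8). Dppa3, whose protein protects maternal DNA methylation, was highest (0.981 ± 0.738 to 2.02 ± 1.31, 0.97), followed by Npm3 (0.74) and the synaptonemal complex gene Sycp3 (0.69). Kit, the stem cell factor receptor gene, was lowest (1.64 ± 1.21 to 0.878 ± 0.728, −0.83), then Zar1 (−0.47) and Nlrp4a (−0.43). Gdf9, the oocyte growth factor gene, had 1.87 ± 1.13 and 2.34 ± 1.27 (0.31).

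Lineage genes were mixed. Among 17 pluripotency bins 2 were 1.5-fold higher and 0 lower (median 0.20, and 0.26 without the 8). Pou5f1, the gene of OCT4, ran from 0.00 over 1.49 to 5.02 in zygotes and from 0.00 over 2.09 to 8.01 in blastomeres, with means of 1.53 ± 1.04 and 2.48 ± 1.41 (0.66, and 0.72 without the 8). Sall4 followed at 0.59 and Nanog at 0.47 (1.78 ± 1.17 to 2.50 ± 1.53), while Sox2 had −0.13 (1.83 ± 1.38 to 1.66 ± 1.07) and Dppa4 −0.19. No trophectoderm bin of 10 passed 1.5-fold (median 0.05, and 0.15 without the 8), with Cdx2 at 0.05 and Gata3 at 0.43. Of 7 primitive endoderm bins 0 were higher and 2 lower (median −0.11, and −0.08 without the 8), Foxa2 (1.20 ± 0.761 to 0.603 ± 0.624, −0.89) and Sox7 (−0.61, and −0.41 without the 8), while Gata6 had 0.30.

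Genes that every cell uses were higher as groups. Of 77 bins of cytoplasmic ribosomal protein genes 11 were 1.5-fold higher and 0 lower, or 19 and 0 without the 8. Of these 77 bins 65 had a log2 ratio above 0 (43.5% of all bins did), and the median was 0.38 (0.46 without the 8). Mean OE over them was 1.59 ± 0.161 in zygotes (1.31 to 2.00) and 2.04 ± 0.381 in blastomeres (1.07 to 2.78), and 27 of 45 blastomeres lay above the highest zygote. Rpl15 was among the highest (0.826 ± 0.645 to 1.45 ± 1.08, 0.74), and Rps3 was lowest (1.77 ± 1.30 to 1.30 ± 0.931, −0.41). Mitochondrial ribosomal protein genes had 10 bins higher and 1 lower of 77 (median 0.29, and 0.33 without the 8), with Mrpl32 at 0.84 (0.41 without the 8) and Mrps28 at −0.62, and proteasome subunits 4 higher and 0 lower of 36 (median 0.30, and 0.31 without the 8), with Psma2, in the bin of Mrpl32, at 0.84. Housekeeping genes had 2 higher and 0 lower of 14 (median 0.20, and 0.30 without the 8), with Actb at 1.82 ± 0.869 and 3.13 ± 1.37 (0.75) and Gapdh at 1.99 ± 1.21 and 2.55 ± 1.53 (0.34). These lists sit in gene-rich bins, with 3.87 genes per bin for ribosomal protein genes, 3.88 for the mitochondrial ones and 3.53 for the proteasome, and bins of 4 genes had a median of 0.17 over the genome. The part of gene number in the lists' values was not tested.

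Genes of chromatin and of the nuclear envelope, with 3.08 and 2.77 genes per bin, showed the same direction. Bins of 3 genes had a median of 0.14 over the genome, and the part of gene number was not tested here either. Of 36 bins of chromatin regulators 6 were 1.5-fold higher and 0 lower, and 32 lay above 0 (median 0.34, and 0.43 without the 8). Setdb1, a histone H3 lysine 9 methyltransferase gene, went from 1.20 ± 0.972 to 2.22 ± 1.42 (0.83), Hdac2 from 0.558 ± 0.437 to 0.967 ± 0.823 (0.70) and Ehmt2 from 2.21 ± 1.25 to 3.6 ± 1.75 (0.68), while Tet3 had −0.42. Kdm5b, a histone H3 lysine 4 demethylase gene, had 1.36 ± 0.827 and 1.93 ± 1.12 (0.48). Of 13 bins of lamina and tether genes 5 were higher and 0 lower (median 0.27, and 0.40 without the 8), led by Ankle2 (0.78), Tmpo, the gene of LAP2 (1.36 ± 0.723 to 2.41 ± 1.04, 0.78), and Banf1 (0.71). Lmnb1 itself had 1.78 ± 0.97 and 2.17 ± 1.64 (0.27), and Syne2 −0.32.

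Among large families, zinc-finger genes of the Zfp series, many of them transcriptional repressors, had higher bins spread over the genome. Their bins held 2.67 genes each on average. Of 280 bins 26 were 1.5-fold higher and 5 lower, or 36 and 5 without the 8 (median 0.18, and 0.23 without the 8). In 31 of 45 blastomeres the mean OE lay above the highest zygote. Solute carrier genes had 21 higher and 12 lower of 308 (median 0.12, and 0.16 without the 8). The Pramel and Oog families, germ-cell gene clusters, had 10 of 35 bins higher and 2 lower (median 0.37, and 0.43 without the 8), but the bins at both ends had expected numbers of 87 or fewer or none recovered, so these values are uncertain.

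Long neuronal genes had the lowest median of the lists. Of 27 bins of long neuronal genes 0 were 1.5-fold higher and 5 lower, or 0 and 9 without the 8. Their median was −0.26 (−0.42 without the 8). Mean OE over them was 0.659 ± 0.124 in zygotes (0.408 to 0.906) and 0.535 ± 0.168 in blastomeres (0.170 to 0.975), and 8 blastomeres lay below the lowest zygote. Cdh18, a cadherin gene, was among the lowest (0.637 ± 0.597 to 0.331 ± 0.431, −0.77), as was Csmd1 (−0.74), while Csmd3 had 0.40. Glutamate receptor genes had 1 bin higher and 3 lower of 26, or 1 and 9 without the 8 (median −0.17, and −0.29 without the 8). They divided by place, with Grin3b (1.80 ± 0.886 to 3.04 ± 1.53, 0.72) and Grina (0.46) at one end and Grik1, Gria2 and Grik3 (−0.87) at the other. Of the neuronal bins 20 of 27 lay in both LAD lists, and the 8-cell mean over them was 0.278. Developmental neural transcription factors, which act in the early nervous system, had 0 bins 1.5-fold higher and 0 lower of 21 (median 0.02, and 0.04 without the 8).

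Other gene families had medians on both sides of that of all bins. Olfactory receptor genes, with 270 bins in both LAD lists, had 13 bins 1.5-fold higher and 10 lower of 337 (median 0.03, 0.02 without the 8 and −0.06 in cells with at least 75000 reads), and mean OE of 0.778 ± 0.0875 in zygotes and 0.806 ± 0.0769 in blastomeres. Klr natural killer receptors had 0 higher and 1 lower of 12 (median −0.23, and −0.27 without the 8), serpins 0 and 1 of 27 (−0.21 and −0.20), and the prolactin family 0 and 1 of 14 (−0.18 and −0.20). Genes imprinted with DNA methylation marks had 0 and 1 of 24 (−0.04, and 0.02 without the 8), with Nap1l5 lowest (−0.83). Of 6 bins of genes imprinted by maternal H3K27me3, Sfmbt2 was 1.5-fold lower (1.10 ± 0.767 to 0.507 ± 0.460, −0.98, and −1.04 without the 8), and the others ran from −0.20 to 0.19. Bins nearest to no difference held Mrps31 with Smim19 (1.20 in both stages), the Polycomb gene Ezh2 (0.921 in both) and Magi2 (0.99 in both, but −0.44 without the 8).

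**Figure D5:**
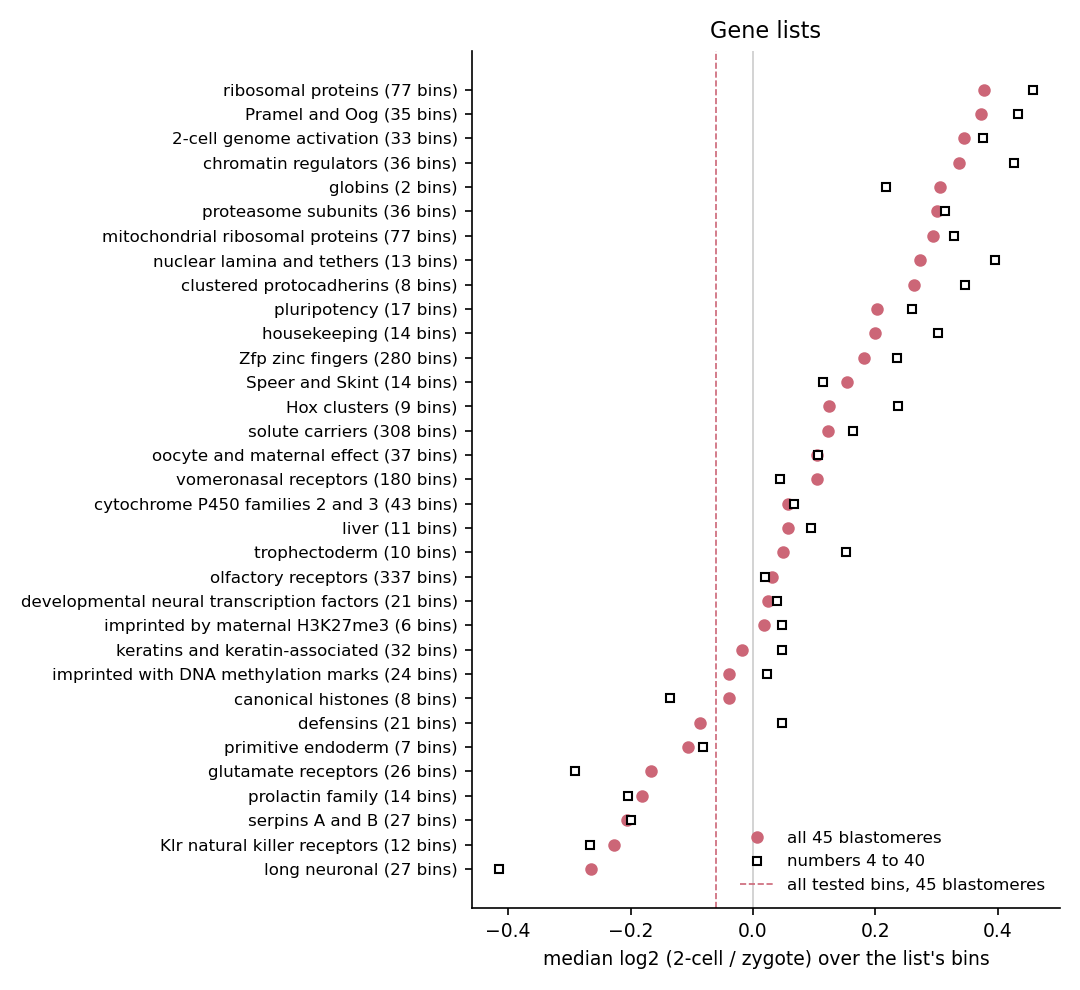
The plot shows the median log2 ratio of 2-cell over zygote OE (x axis) of each gene list over the bins of its members, for all 45 blastomeres and for numbers 4 to 40, with the median of all bins marked. Ribosomal protein genes (0.38) and 2-cell activation genes (0.35) lie among the highest and long neuronal genes (−0.26) lowest.

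Neighbouring bins differed together over short stretches. The log2 ratio of a bin correlated at 0.255 with that of the next bin, at 0.106 with that 10 bins away and at 0.031 with that 50 bins away. Runs of at least 3 called bins, 1 gap allowed, numbered 2 for 2-fold higher bins, in vomeronasal receptor and Pramel clusters where the expected number was low or could not be recovered, and 0 for 2-fold lower bins. At 1.5-fold there were 36 higher runs (16 Mb in all, the longest 0.9 Mb) and 75 lower runs (34 Mb, the longest 1.0 Mb).

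Among higher runs outside LADs, chr7:28900001-29700000, with Actn4, Eif3k and Psmd8, had a mean OE of 1.5 ± 0.476 in zygotes (0.598 to 2.88) and 2.29 ± 0.926 in blastomeres. In chr3:88900001-89500000, which holds 32 genes, it was 1.53 ± 0.409 (0.745 to 2.39) and 2.24 ± 0.705. The longest lower run, chr9:83800001-84800000, with Ttk and Bckdhb, lay wholly in both LAD lists and had 0.802 ± 0.213 (0.289 to 1.24) and 0.503 ± 0.197. In chr2:140600001-141400000, with Flrt3 and Macrod2, the means were 0.977 ± 0.274 and 0.689 ± 0.292. Without the 8 the blastomere means of these 4 runs were 2.44, 2.36, 0.501 and 0.616. Over 1 Mb windows 4 of 2403 were 1.5-fold higher and 3 lower, or 7 and 4 without the 8.

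Chromosomes differed little. The median log2 ratio was highest on chromosome 5 (0.03) and chromosome 11 (0.02) and lowest on chromosome 16 (−0.15) and chromosome 6 (−0.12). Without the 8 these were 0.03, 0.02, −0.17 and −0.15.

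The spread of signal within a cell was compared after thinning every cell to 33095 reads. The coefficient of variation over bins was 1.14 ± 0.0969 in zygotes (0.954 to 1.34) and 1.21 ± 0.110 in blastomeres (1.05 to 1.5), and 35.8% ± 3.72 and 38.3% ± 4.21 of bins had no read. Without thinning these were 0.930 ± 0.2 and 1.09 ± 0.169, and 16.5% and 25.2%. The thinned cells overlapped, with 6 blastomeres above the highest zygote in the first measure and 7 in the second. With the 8 left out, the blastomere means were 1.23 ± 0.108 and 39.2% ± 4.03.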

How the data were processed

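Per the submitters' processing notes, reads were handled with cutadapt and BWA 0.7.12 on mm10; for other steps, the sources used here give nothing. The authors deposited 1 table of the observed over expected ratio (OE) per cell in 24639 autosomal bins of 100 kb, 617 of them without a value, and 2 lists of LADs. In every cell 100% of the ratios came out as whole multiples of 1 step per bin (tolerance 0.02 reads), which gave the depths; if the smallest step were several reads, depths would be multiples of those given. The step was found in all but 165 of 24022 bins.

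Stage means with a pseudocount of 0.1 OE gave the log2 ratio. Bins with a mean of at least 0.2 OE were tested, and a bin was called past 2-fold. Each stage counts as 1 sample, so there is no p-value. Named genes were the 12 gene-holding bins with the largest difference each way, at most 1 per 5 Mb, the longest runs, the 3 highest and lowest members of a described list, 12 genes given whatever their values, and the 3 bins nearest to 0. A few items that these rules select are not reported here. The members, the lists and these rules were chosen with earlier results of these data known. The scripts were tested on simulated data. Genes, their positions and promoters came from RefSeq tables of GRCm38.p6. Tools were Python 3.11.15, numpy 2.4.6, scipy 1.17.1, pandas 2.3.3 and matplotlib 3.10.9. Alternatives were other pseudocounts, thresholds, scalings, subsets of cells and bins, thinning and wider windows. No replicate number was used to pair cells.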

Additional observations from a re-analysis of the deposited data

How the results depend on the processing

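No paired analysis was possible because a number names a cell within its stage, cells of 1 stage are not replicates of a condition, and the results come from no test. The LAD contrast, at −0.18, ran from −0.32 to −0.09 over the alternatives, the excess of spread within a cell was 0.0704, or 0.160 without thinning, and neither changed its direction. Leaving out 1 cell in turn gave 53 to 68 bins 2-fold higher, 135 to 160 lower and a contrast of −0.20 to −0.16. Counts of called bins (63 higher, 141 lower) depended on the setting. A pseudocount of 0.5 gave 14 and 10, one of 0.02 gave 115 and 321, thinned cells 103 and 301, medians over cells 127 and 1862, 1.5-fold 842 and 1732, and 1 Mb windows 1 and 2. Scaling to bins in neither LAD list gave 98 higher. Runs of 2-fold bins (2 higher, 0 lower) became 0 higher with a pseudocount of 0.5, 3 lower with 0.02, 1 lower without the filter on low means, 0 and 1 with thinned cells, 0 and 170 with medians, and 36 and 75 at 1.5-fold. Bins that separate the cells (11 higher, 4 lower) were 0 and 2 in thinned cells and 0 and 0 at 90% of pairs.

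The next 3 alternatives were chosen after seeing the data. Without blastomeres 41 to 48, 220 bins were lower, 2 runs were lower and 25 bins separated the cells upwards. Bins with an expected number of at least 200 gave 28 higher bins and 0 higher runs. Cells with at least 75000 reads (31 zygotes and 17 blastomeres, none of numbers 41 to 48) gave 378 lower bins, 4 lower runs and 150 and 87 separating bins, and a median of −0.44 for glutamate receptor genes. The planned limit of 200000 reads left 4 zygotes and 1 blastomere and was not run. The cause of these shifts was not tested. The median of canonical histone genes, −0.04, was 0.02 when scaled to bins in neither LAD list and 0.07 in thinned cells. Of 1340 values of named bins under alternatives, 31 moved by more than 1 SD between zygotes. That SD is between single cells of a noisy bin and can exceed a 2-fold difference. The count therefore does not show that the values of named bins hold.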

Other observations

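Some cells stood apart on whole chromosomes, taken as a mean OE under 0.6 or at least 1.5 times the median of the stage. Zygote 44 had 0.496 of the stage median on chromosome 12, 0.438 on chromosome 15 and 0.433 on chromosome 19. Blastomere 33 had 1.53 on chromosome 2, 0.392 on chromosome 3, 0.587 on chromosome 4, 0.479 on chromosome 13 and 0.563 on chromosome 16. Blastomere 36 had 0.440 on chromosome 1, blastomere 23 had 0.542 on chromosome 8, blastomere 38 had 0.595 on chromosome 9 and blastomere 37 had 1.5 on chromosome 13. These are values of 6 of 91 cells and were kept in all results.

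The bin of Sfi1 on chromosome 11, chr11:3100001-3200000, had by far more signal than its expected number, with a mean OE of 36.7 ± 11.6 in zygotes and 43.8 ± 14.6 in blastomeres. Over 23555 well-covered bins the log2 ratio of Dam between the stages correlated at 0.01 with that of Dam-lamin B1, and at −0.10 without blastomeres 41 to 48. The constructs share no cells.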
